A study of Mus musculus with 9 samples.

Results

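The 9 cholesterol synthesis enzymes encoded by Hmgcs1, Mvk, Idi1, Fdps, Fdft1, Sqle, Lss, Cyp51 and Sc5d were followed in cultured mouse fat cells exposed to PTH or PTHrP. They were chosen by name, with earlier results of these data known. Every probe set that the array's annotation assigns to these genes was taken, which gave 25 of 45037 probe sets and 9 of 18193 measured genes. The cells were primary white adipocytes grown from stromal-vascular cells, the precursor-containing part of inguinal fat pads, of male C57BL6 mice aged 30 to 35 days. All groups had been differentiated in the same way, with dexamethasone (1 µM), isobutylmethylxanthine (0.5 µM), insulin (5 µg/ml) and rosiglitazone (1 µM) for 2 days. Insulin and rosiglitazone were then continued until medium alone was given from day 6. On day 8, a group of 3 samples received PTH(1-34) and a group of 3 received PTHrP(1-34), each at 100 ng/ml for 4 h, and 3 samples were controls. The labels do not state what the control cells were given. Parathyroid hormone (PTH) and parathyroid hormone-related protein (PTHrP) signal through a common receptor, and 1-34 names the amino-terminal fragment used of each. The labels call the replicates biological without naming separate mice or cultures, so the p-values below measure only the spread between these samples.

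Cholesterol is built from acetyl-CoA through the mevalonate pathway. HMG-CoA synthase and the following enzymes make mevalonate and then the isoprenoid unit isopentenyl pyrophosphate, from which farnesyl pyrophosphate is assembled. Farnesyl pyrophosphate is a branch point: squalene synthase commits it to sterols, while other enzymes use it for dolichol, ubiquinone and protein prenylation. The genes of the pathway are classical targets of the transcription factor SREBP-2, which is held in the endoplasmic reticulum by SCAP and INSIG proteins when sterols are plentiful and released when they are scarce. Adipocytes store much unesterified cholesterol and take most of it from lipoproteins, and the cultures here were kept in medium with serum.

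Values are the deposited linear signals, whose median per array lay between 48.3 and 52.7, and a gene is represented by its brightest probe set. With 3 arrays a group, their number limits the precision. Of 10 adipocyte markers listed, 8 were measured and all of these lay above the dim level of 29.0 (the 40th percentile of probe sets). Adipoq, which encodes the fat hormone adiponectin, had a signal of 13618 ± 300 (SD, n = 3) in controls. Markers of lymphocytes were all at or below the dim level, with 0 of 4 measured above it. Of 5 epithelial markers, 1 exceeded that level, and of 7 macrophage markers, 5 did. The summed macrophage markers were 1014 to 1121 in controls, 1092 to 1245 with PTH and 1080 to 1214 with PTHrP. All 4 measured proliferation markers exceeded the dim level. Their sum was 5130 to 5290 in controls, 4709 to 5247 with PTH and 4367 to 5181 with PTHrP. No macrophage or proliferation marker had an adjusted p below 0.05 with PTH or PTHrP (limma). The summed signal of preadipocyte and fibroblast markers was 31884 to 32105 in controls, 31465 to 31789 with PTH and 30398 to 32957 with PTHrP. In RNA from cultures that can hold several cell types, fewer cells of a type and less RNA per cell cannot be told apart.

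Most of the enzymes had lower transcript signals after 4 h of peptide, and Hmgcs1, at the entry of the pathway, did not. With both peptides combined against control, 7 of 9 fell (Mvk, Idi1, Fdps, Fdft1, Lss, Cyp51 and Sc5d), 0 rose, and Hmgcs1 and Sqle did not pass the test (limma, adjusted p below 0.05 over all genes). For comparison, 4.57% of all 18193 genes were called lower and 3.83% higher, and 7.69% of the 6879 genes at least as bright as the dimmest enzyme (Mvk, mean signal 295) were lower. The mean treated signal of the 7 genes lay between 76.4% of control (Fdft1) and 85.5% (Sc5d). The enzymes were chosen with earlier results of these data known, so these shares are a description and do not test the set. Of 9 other measured synthesis enzymes, given below, 1 fell and 1 rose. The median log2 change of the chosen 9 genes was -0.28, against -0.0035 for all genes. In 8 of 9 genes every treated array lay below every control array, an arrangement found in 8.1% of all genes and in 14% of the bright ones; 7.47% of all genes showed the opposite arrangement, and none of the 9.

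**Figure D1:**
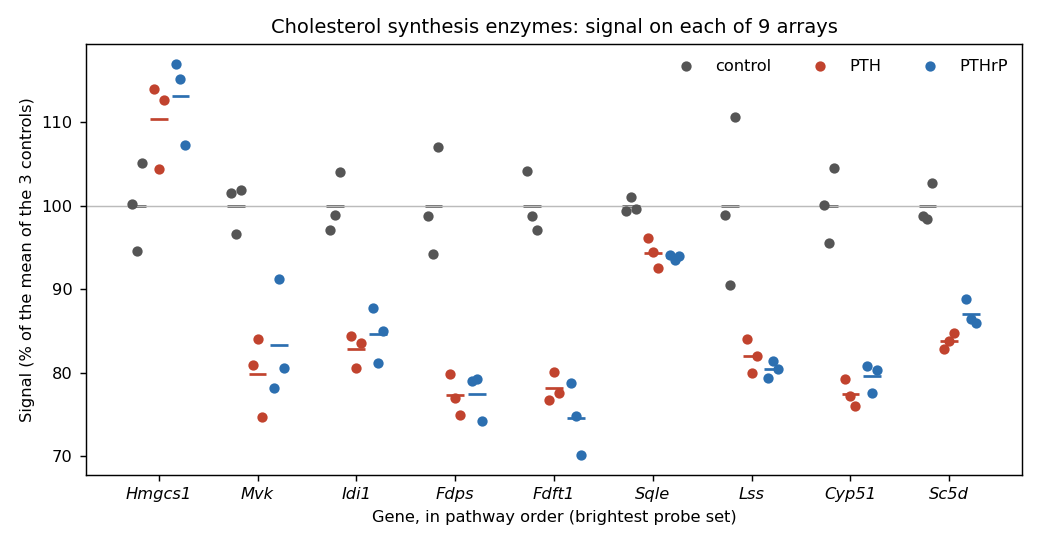
Signal of each enzyme's brightest probe set on each of the 9 arrays, as a percentage of the mean of the 3 controls; points are arrays, short lines are group means, and the vertical axis does not start at 0. The PTH and PTHrP points lie below all 3 controls for every gene but Hmgcs1, and those of Sqle lie closest to the controls.

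With PTH alone, 6 of 9 genes fell (Mvk, Idi1, Fdps, Fdft1, Cyp51 and Sc5d) and 0 rose, while 3.12% of all genes and 5.47% of the bright ones were called lower and 2.94% of all genes higher. With PTHrP alone, 6 of 9 fell (Idi1, Fdps, Fdft1, Lss, Cyp51 and Sc5d) and 0 rose, beside 3.02% of all genes and 5% of the bright ones called lower and 2.53% of all genes higher. These comparisons use the same 3 control arrays and are not independent of each other, so their values are set side by side only. The median log2 change of the 9 genes was -0.27 with PTH and -0.25 with PTHrP. Without PTH replicate 2 the count for PTH was 3, without PTH replicate 3 it was 1 (Cyp51), and with a gene's probe sets averaged it was 2. The count for PTHrP was 3 without control replicate 1 or 3, without any of the 3 PTH arrays, or without PTHrP replicate 1 or 3, 3 with averaged probe sets or with each array centred on its median or 75th percentile, and 2 when only the groups compared were fitted.

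**Figure D2:**
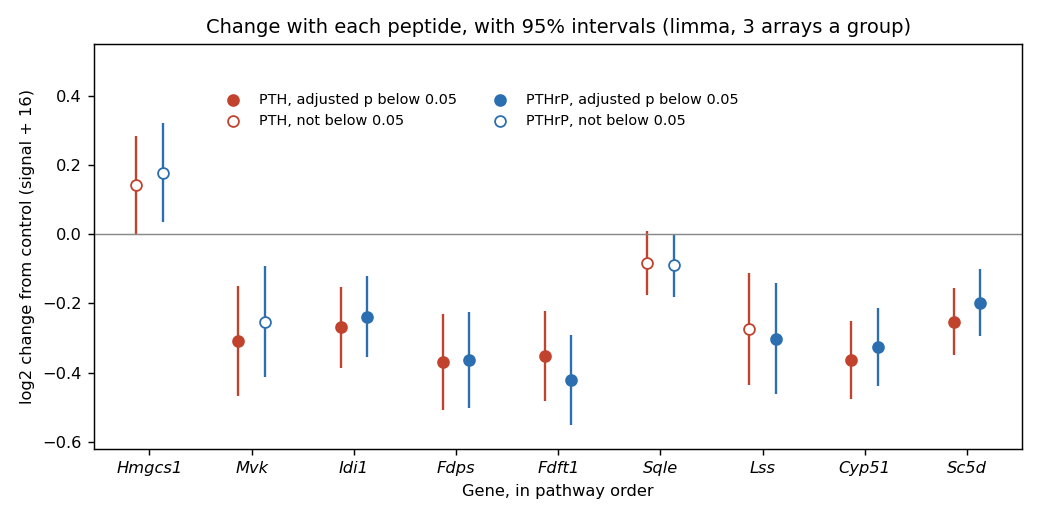
Log2 change of each enzyme from control with PTH and with PTHrP, on the scale of signal + 16; points are limma estimates from 3 arrays a group, bars are 95% confidence intervals, and filled points have an adjusted p below 0.05. The intervals of the 7 genes from Mvk to Fdft1 and from Lss to Sc5d lie wholly below 0, those of Hmgcs1 lie mostly above it, and those of Sqle reach just past it.

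Other measurements moved with treatment. The summed signal of smooth muscle and pericyte markers was 25433 to 26091 in controls, 23620 to 23911 with PTH and 22636 to 23979 with PTHrP. Of its genes, 2 (Myh11 and Pdgfrb) were called lower with each peptide. Acta2, Tagln, Cnn1 and Rgs5 were not called with either. The log2 changes with PTH and PTHrP were -0.05 and -0.09 for Acta2, whose control mean was 12821. They were -0.11 and -0.14 for Tagln and -0.25 and -0.35 for Cnn1. Rgs5 went the other way (0.23 and 0.21). The summed skeletal muscle markers, of which 2 of 5 exceeded the dim level, were 438 to 556 in controls. They were 395 to 429 with PTH and 363 to 426 with PTHrP. Acta1, with a mean of 406 in controls, made up most of this sum and was called lower with each peptide. The others had control means of 9.58 to 40.5 and were not called. Their log2 changes with PTH and PTHrP were 0.48 and -0.20 (Myog), 0.01 and 0.08 (Ckm), 0.31 and 0.26 (Myh4), and -0.12 and -0.20 (Tnnt3). The summed adipocyte markers were 66470 to 68998 in controls, 68041 to 71552 with PTH and 65795 to 69785 with PTHrP, where 1 gene, Cidec, was called higher. The summed endothelial markers, of which 3 of 5 exceeded the dim level, were 261 to 316 in controls. They were 214 to 245 with PTH, below the controls, and 218 to 303 with PTHrP, overlapping them. No endothelial marker was called with either peptide. Kdr had the largest control mean (150), with log2 changes of -0.48 with PTH and -0.26 with PTHrP. The changes were -0.54 and -0.10 for Pecam1, -0.19 and -0.26 for Tek, 0.06 and -0.03 for Cdh5, and 0.08 and 0.15 for Emcn. The 3' to 5' signal ratio of actin, which tracks RNA integrity, was 1.45 to 1.51 in controls and 1.52 to 1.65 in treated arrays (p = 0.0119 by an exact two-sided permutation test, the lowest possible with 84 splits). The same ratio for Gapdh was 0.950 to 0.985 in controls and 0.931 to 0.988 in treated arrays (exact two-sided permutation p = 0.643). The part of these in the enzyme values was not tested.

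Hmgcs1 (Entrez 208715) encodes the cytosolic HMG-CoA synthase, which joins acetyl-CoA to acetoacetyl-CoA. Its brightest probe set is 1433445_x_at, and x in such names marks probes that may also match other transcripts. Its signals were 5094, 4808 and 5341 in controls, 5792, 5303 and 5722 with PTH, and 5945, 5850 and 5452 with PTHrP. The treated arrays were the higher ones, but the groups overlapped, since PTH replicate 2 lay below control replicate 3. The log2 change was 0.14 with PTH (95% interval -0.0012 to 0.28, adjusted p = 0.268) and 0.18 with PTHrP (0.04 to 0.32, adjusted p = 0.165). With both peptides together it was 0.16 (SE 0.05, adjusted p = 0.124), and it was called with both when the dimmest 40% of genes were left out (adjusted p = 0.0490), with the mean of its probe sets (0.0495) or with a trended and robust variance (0.0129). All 5 Hmgcs1 probe sets changed in the positive direction. Only 1433443_a_at had all 6 treated arrays above all 3 controls: 3593, 3369 and 3569 in controls, 4097, 4178 and 4150 with PTH, and 4176, 3869 and 4062 with PTHrP. It was called higher among all probe sets with both peptides together (log2 change 0.22, SE 0.05, adjusted p = 0.0444), and not with PTH (adjusted p = 0.0698) or PTHrP (0.13) alone.

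Mvk (Entrez 17855) encodes mevalonate kinase, which adds the first phosphate to mevalonate. Its signals were 342, 325 and 343 in controls, 273, 283 and 251 with PTH, and 263, 307 and 271 with PTHrP. All treated arrays were below the controls, the nearest being PTHrP replicate 2. The log2 change was -0.31 with PTH (SE 0.07, adjusted p = 0.0389) and -0.25 with PTHrP (SE 0.07, adjusted p = 0.0838), so it passed the test with PTH only, and the direct comparison of the peptides, given below, did not separate them. Its PTH call was lost without any 1 of the 3 control or 3 PTH arrays (adjusted p 0.0706 to 0.142) and without PTHrP replicate 3 (0.0553). A PTHrP call was gained in 5 of 20 alternatives (adjusted p 0.0281 to 0.0427). With both peptides combined the change was -0.28 (SE 0.06, adjusted p = 0.0254), a call lost in 10 of 19 alternatives, among them leaving out any control array, PTH replicate 1 or 3, or PTHrP replicate 1 or 3 (adjusted p 0.0506 to 0.0934). The other Mvk probe set, 1430619_a_at, also had every treated array below the controls (log2 change -0.24 with both peptides together, adjusted p = 0.0655 over probe sets).

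Idi1 (Entrez 319554) encodes isopentenyl-diphosphate delta-isomerase, which interconverts the isoprenoid building blocks. Its signals were 2134, 2173 and 2286 in controls, 1855, 1771 and 1838 with PTH, and 1929, 1785 and 1869 with PTHrP. The groups of treated and control arrays did not overlap, and the log2 change was -0.27 with PTH (adjusted p = 0.0196) and -0.24 with PTHrP (adjusted p = 0.0341), each with an SE of 0.05. The PTH call was lost without control replicate 2 or 3 or any PTH array (adjusted p 0.0533 to 0.0795) and the PTHrP call without any single array (0.0559 to 0.096). With both peptides combined (-0.25, SE 0.04, adjusted p = 0.0105) it stood whichever array was left out. Its dimmer probe set 1423804_a_at read 1292, 1287 and 1190 in controls, 1186, 965 and 1182 with PTH, and 1218, 1134 and 1108 with PTHrP. There the groups overlapped and the change did not pass (log2 change -0.15 with both peptides, adjusted p = 0.402 over probe sets).

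Fdps (Entrez 110196) encodes farnesyl pyrophosphate synthase, the enzyme that nitrogen-containing bisphosphonates inhibit. Its signals were 3323, 3172 and 3602 in controls, 2688, 2592 and 2523 with PTH, and 2658, 2668 and 2499 with PTHrP. Every treated array lay well under the lowest control, and the mean was 77.3% of control with PTH and 77.5% with PTHrP. The log2 change was -0.37 with PTH (SE 0.06, adjusted p = 0.0109) and -0.36 with PTHrP (SE 0.06, adjusted p = 0.0116). Without PTH replicate 3 the PTH value did not pass (adjusted p = 0.0567), while the combined value of -0.37 (SE 0.05, adjusted p = 0.0043) passed whichever array was left out. The PTHrP call was lost when only the groups compared were fitted (adjusted p = 0.054). A further Fdps probe set, 1438150_at, had signals of 1.54 to 5.47 and carries no usable level.

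Fdft1 (Entrez 14137) encodes squalene synthase, which joins farnesyl units into squalene and is the committed step to sterols. Its signals were 2667, 2530 and 2488 in controls, 1967, 2052 and 1988 with PTH, and 2018, 1918 and 1797 with PTHrP. The treated arrays formed a separate lower group, and the log2 change was -0.35 with PTH (adjusted p = 0.00985) and -0.42 with PTHrP (adjusted p = 0.00482), each with an SE of 0.06. The PTH call was narrowly lost without PTH replicate 3 (adjusted p = 0.0507). The combined change of -0.39 (SE 0.05, adjusted p = 0.00244) was the largest of the 9. This brightest probe set, 1438322_x_at, carries the same mark of possible matches elsewhere as that of Hmgcs1. A further probe set without that mark, 1448130_at, read 1777, 1715 and 1838 in controls, 1269, 1245 and 1302 with PTH, and 1294, 1396 and 1254 with PTHrP. It fell by 0.48 with PTH (adjusted p = 0.00653) and by 0.43 with PTHrP (adjusted p = 0.0103) on the log2 scale among all probe sets.

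Sqle (Entrez 20775) encodes squalene epoxidase, a rate-controlling step of sterol synthesis whose fungal counterpart is inhibited by terbinafine. Its only probe set read 2067, 2101 and 2070 in controls, 1999, 1965 and 1924 with PTH, and 1958, 1945 and 1955 with PTHrP. All treated arrays lay just below all controls. The difference was small and did not pass the test: the log2 change was -0.08 with PTH (95% interval -0.17 to 0.01, adjusted p = 0.319) and -0.09 with PTHrP (-0.18 to 0.0019, adjusted p = 0.285).

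Lss (Entrez 16987) encodes lanosterol synthase, which folds squalene epoxide into lanosterol. Its signals were 653, 598 and 730 in controls, 555, 528 and 541 with PTH, and 524, 538 and 532 with PTHrP. The controls were spread more widely than the treated arrays, and all treated arrays lay below them. The log2 change was -0.27 with PTH (SE 0.07, adjusted p = 0.0629) and -0.30 with PTHrP (SE 0.07, adjusted p = 0.0468). The PTHrP call was lost without any single array except control replicate 2 (adjusted p 0.0762 to 0.145). The combined change was -0.29 (SE 0.06, adjusted p = 0.0238) and was lost without control replicate 1 or 3, PTH replicate 2 or 3, or PTHrP replicate 1 (0.0556 to 0.0713). A second probe set of Lss, 1426913_at, read 448, 422 and 408 in controls, 337, 338 and 366 with PTH, and 326, 324 and 297 with PTHrP. It was called with PTHrP (log2 change -0.41, adjusted p = 0.0169) and not with PTH (-0.28, adjusted p = 0.0681) among all probe sets. The direct comparison did not separate the peptides for either probe set. The log2 difference, PTH minus PTHrP, was 0.13 for 1426913_at (95% interval -0.02 to 0.28) and 0.03 for the brightest (-0.13 to 0.19). The brightest gained a PTH call in 4 of 20 alternatives.

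Cyp51 (Entrez 13121) encodes lanosterol 14-alpha-demethylase, the cytochrome P450 whose fungal counterpart is the target of azole drugs. Its signals were 2031, 1938 and 2121 in controls, 1608, 1569 and 1543 with PTH, and 1642, 1574 and 1630 with PTHrP. The groups were far apart beside their spread, and the log2 change was -0.36 with PTH (SE 0.05, adjusted p = 0.0048) and -0.33 with PTHrP (SE 0.05, adjusted p = 0.0078). Of the 9 enzymes, Cyp51 alone kept its call with PTH and with PTHrP under every alternative tried, leaving out each array included. A further probe set, 1422533_at, read 706, 716 and 725 in controls, 583, 525 and 544 with PTH, and 571, 525 and 604 with PTHrP, and was called with PTH (-0.37, adjusted p = 0.0304) and with PTHrP (-0.33, adjusted p = 0.0489). The dimmest Cyp51 probe set, 1422534_at, lay lower in all 6 treated arrays but did not pass (log2 change -0.33 with both peptides, adjusted p = 0.154).

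Sc5d (Entrez 235293) encodes sterol C5-desaturase, which acts near the end of the pathway, before the final reductions to cholesterol. Its signals were 2451, 2441 and 2549 in controls, 2056, 2080 and 2102 with PTH, and 2205, 2144 and 2132 with PTHrP. Treated and control arrays did not overlap, and the log2 change was -0.25 with PTH (SE 0.04, adjusted p = 0.0119) and -0.20 with PTHrP (SE 0.04, adjusted p = 0.0344). The PTH call was lost without PTH replicate 2 (adjusted p = 0.0511) or 3 (0.0522), and the PTHrP call without any single array (0.0597 to 0.0927). The combined change of -0.23 (SE 0.04, adjusted p = 0.0078) passed whichever array was left out. Its other probe sets had smaller changes that did not pass, with a log2 change with both peptides of -0.17 for 1434520_at (adjusted p = 0.168) and -0.10 for 1424709_at (adjusted p = 0.744).

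Across the 25 probe sets, 21 lay above the dim level. With both peptides together 9 were called lower and 1, the Hmgcs1 probe set above, higher, where 2.13% and 2% of all probe sets were called. With PTH 6 were called lower and 0 higher, beside 1.37% and 1.34% of all probe sets, and with PTHrP 6 and 0, beside 1.2% and 1.19%. All 6 treated arrays lay below all controls in 13 of the 25 (5.88% of all probe sets) and above them in 1 (5.74%). Probe sets of a gene read the same RNA on the same arrays and are not independent of each other. When the probe sets of a gene were averaged, dim ones included, 3 of the 9 genes were called lower with both peptides together, and the log2 change of Fdps was -0.13 (adjusted p = 0.184) and that of Fdft1 -0.18 (adjusted p = 0.146).

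**Figure D3:**
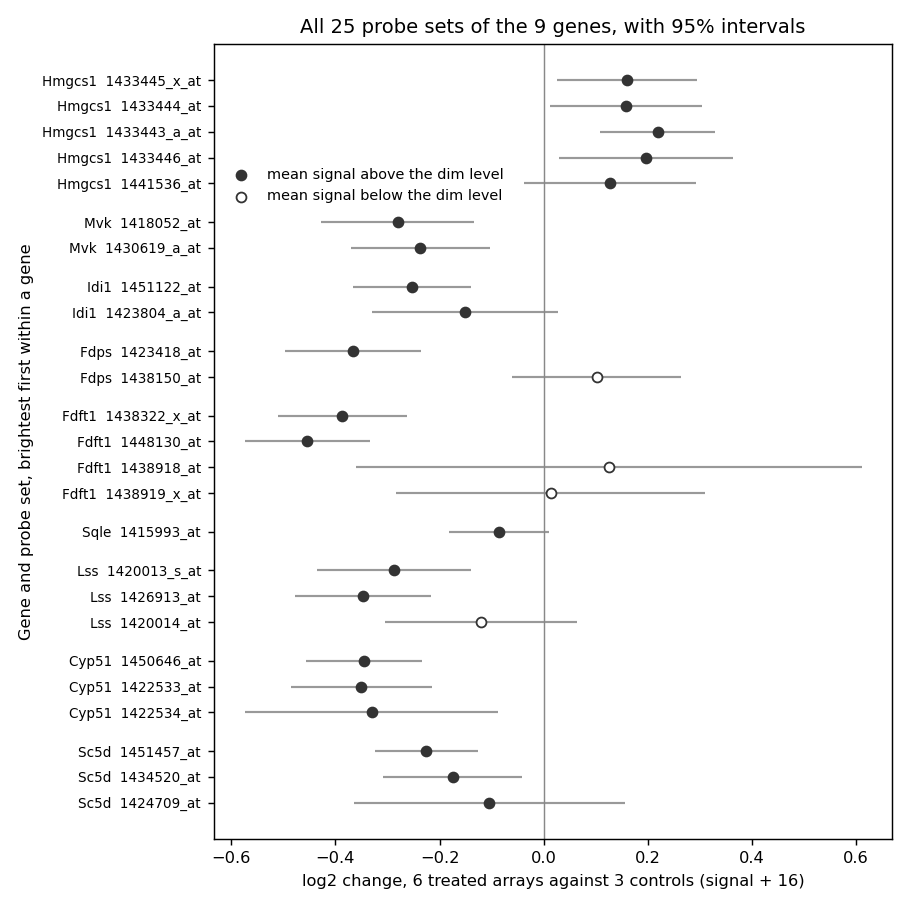
Log2 change (signal + 16) of all 25 probe sets of the 9 genes, 6 treated arrays against 3 controls, with 95% confidence intervals from limma; open circles mark the 4 probe sets below the dim level. The 5 Hmgcs1 probe sets all lie to the right of 0, and the 16 other probe sets above the dim level all lie to the left.

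PTH(1-34) and PTHrP(1-34) were compared directly at the same dose and time, over 9 genes. No enzyme was called different: 0 of 9 passed limma's test, 0% of all 18193 genes were called, and the smallest unadjusted p among the 9 was 0.232 (adjusted p = 0.999). Over all genes, 731 had an unadjusted p under 0.05. The largest difference was that of Fdft1, 0.07 higher with PTH on the log2 scale (95% interval -0.06 to 0.20), and the intervals of all 9 genes lay between -0.22 and 0.20. The narrowest interval was that of Sqle, -0.08 to 0.10. A test that misses its threshold does not show that the peptides act alike. The doses are matched by mass, as the labels give them.

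**Figure D4:**
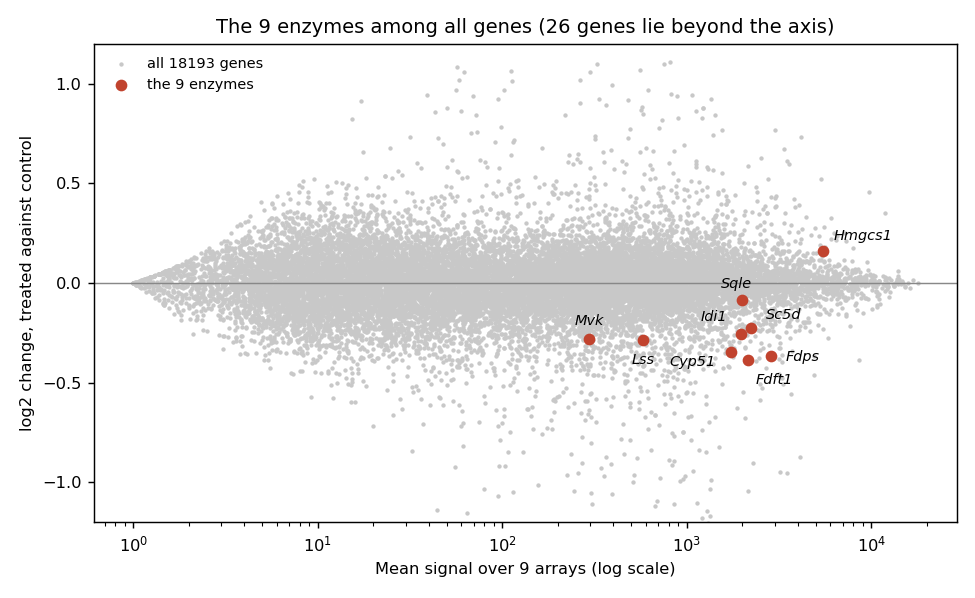
Log2 change of 6 treated arrays against 3 controls (vertical axis, signal + 16) against the mean signal over 9 arrays (horizontal log axis) for all 18193 genes, with the 9 enzymes in colour; 26 genes lie beyond the vertical axis. The enzymes are among the brighter genes, and 8 of 9 lie below 0.

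As a description of the arrays, the 28 pairs of enzymes without Hmgcs1 had Pearson correlations of 0.763 to 0.975 over the 9 arrays (median 0.899). The 8 pairs with Hmgcs1 had correlations of -0.791 to -0.518 (median -0.657). These points share the arrays and the treatment difference. After each group's mean was subtracted, the 28 pairs ranged from -0.591 to 0.821 (median 0.127), and the 8 pairs with Hmgcs1 from -0.206 to 0.773 (median 0.520). The negative correlations of Hmgcs1 were thus those across groups, and their median within groups was positive.

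The bases upstream of the start site were examined because SREBP sites in these promoters are the classical route of their joint regulation. RefSeq windows (GRCm38.p6) were matched for 6 of the 9 genes: Hmgcs1, Mvk, Idi1, Lss, Cyp51 and Sc5d. The motifs sought on both strands in the 250 bases before the start were the sterol regulatory element TCACNCCAC, the NF-Y box CCAAT, the Sp1 box GGGCGG and the core TGACG of the cAMP response element. The last was included because the receptor of both peptides raises cAMP. The sterol regulatory element was found in 1 of 6, Hmgcs1, and in 1.05% of 32851 windows of 27025 genes. The NF-Y box was found in 6 of 6 and in 33.8% of windows, the Sp1 box in 6 of 6 and in 32.7%. The TGACG core was found in 3 of 6 and in 17.8%, at 147 bases before the start in Hmgcs1, 108 in Cyp51 and 54 in Sc5d. In these windows 0 pairs of matches of different motifs shared bases. The motifs were chosen with the sequences in view, a match is a description of letters, and other forms of these sites were not sought.

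Hmgcs1, the only enzyme with a positive change, is shown beside 3 that fell. The windows of Mvk and Lss, which also fell, hold no TGACG core and are not printed. Each window is written 5′ to 3′ in the direction of the gene, with capitals marking matches to the sterol regulatory element, the NF-Y box or the TGACG core on either strand. The windows are chr13:119690101-119690350 (plus strand) for Hmgcs1, chr13:8885356-8885605 (plus) for Idi1, chr5:4104698-4104947 (minus) for Cyp51 and chr9:42264301-42264550 (minus) for Sc5d.
Hmgcs1: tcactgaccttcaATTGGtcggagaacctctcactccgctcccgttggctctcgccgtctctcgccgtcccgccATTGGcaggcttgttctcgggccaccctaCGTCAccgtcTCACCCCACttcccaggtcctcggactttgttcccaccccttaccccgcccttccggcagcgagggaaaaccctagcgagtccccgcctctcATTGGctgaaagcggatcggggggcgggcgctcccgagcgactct
Idi1: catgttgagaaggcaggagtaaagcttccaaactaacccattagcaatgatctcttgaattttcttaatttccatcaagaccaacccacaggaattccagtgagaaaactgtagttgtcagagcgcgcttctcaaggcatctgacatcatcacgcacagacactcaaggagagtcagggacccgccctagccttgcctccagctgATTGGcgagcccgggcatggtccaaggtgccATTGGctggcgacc
Cyp51: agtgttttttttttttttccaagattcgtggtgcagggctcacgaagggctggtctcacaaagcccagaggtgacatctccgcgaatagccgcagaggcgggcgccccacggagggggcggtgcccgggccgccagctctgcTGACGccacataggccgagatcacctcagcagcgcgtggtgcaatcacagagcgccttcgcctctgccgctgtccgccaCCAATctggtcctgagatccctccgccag
Sc5d: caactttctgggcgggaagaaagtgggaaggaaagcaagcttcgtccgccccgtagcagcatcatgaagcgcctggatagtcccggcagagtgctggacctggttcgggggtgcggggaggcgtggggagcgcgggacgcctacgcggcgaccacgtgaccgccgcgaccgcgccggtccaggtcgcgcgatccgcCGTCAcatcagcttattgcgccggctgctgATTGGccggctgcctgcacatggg
In Hmgcs1 the sterol regulatory element begins 137 bases before the start, a few bases downstream of the TGACG core, and 3 NF-Y boxes flank them. Idi1 holds NF-Y boxes alone among the capitals, while Cyp51 and Sc5d hold an NF-Y box near the start and a TGACG core upstream of it.

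Of 12 other synthesis enzymes listed, 9 were measured, and with both peptides together 1 fell (Msmo1) and 1 rose (Hsd17b7), with a median log2 change of -0.12 and 8 of 9 changes negative. With PTH 0 passed, and with PTHrP 1 rose, Hsd17b7. Over all genes, 4.57% were called lower and 3.83% higher with both peptides together, and 9303 of 18193 changes were negative. With PTH 3.12% of all genes were lower and 2.94% higher, and with PTHrP 3.02% and 2.53%. The same shares stand beside the counts of the lists below. Hsd17b7, a 3-ketosteroid reductase that also acts in estrogen metabolism, had a signal of 844 ± 67.0 (SD, n = 3) in control cells, 1063 ± 35.6 with PTH and 1101 ± 99.1 with PTHrP. All treated arrays (993 to 1189) lay above the controls (776 to 910), and the log2 change was 0.33 with PTH (adjusted p = 0.0545) and 0.38 with PTHrP (adjusted p = 0.0362). The PTHrP call was lost without control replicate 2 or 3, any PTH array, or PTHrP replicate 1 or 3 (adjusted p 0.0587 to 0.12). Its probe set 1448865_at rose by 0.54 with PTH (adjusted p = 0.00217) and 0.53 with PTHrP (adjusted p = 0.00225) among all probe sets. Msmo1, a sterol C4-methyl oxidase that acts later in the pathway than Cyp51, was 2111 ± 104 in controls, 1810 ± 33.0 with PTH and 1835 ± 107 with PTHrP (log2 change -0.21 with both, adjusted p = 0.043), a call lost in 15 of 19 alternatives. Mvd, the decarboxylase before Idi1, had a log2 change of -0.40 with both peptides but a wide spread (SE 0.13, adjusted p = 0.108). Msmo1, Mvd and, below, Stard4 and Abca1 lie outside the rule for named genes and were chosen after their values were seen.

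**Figure D5:**
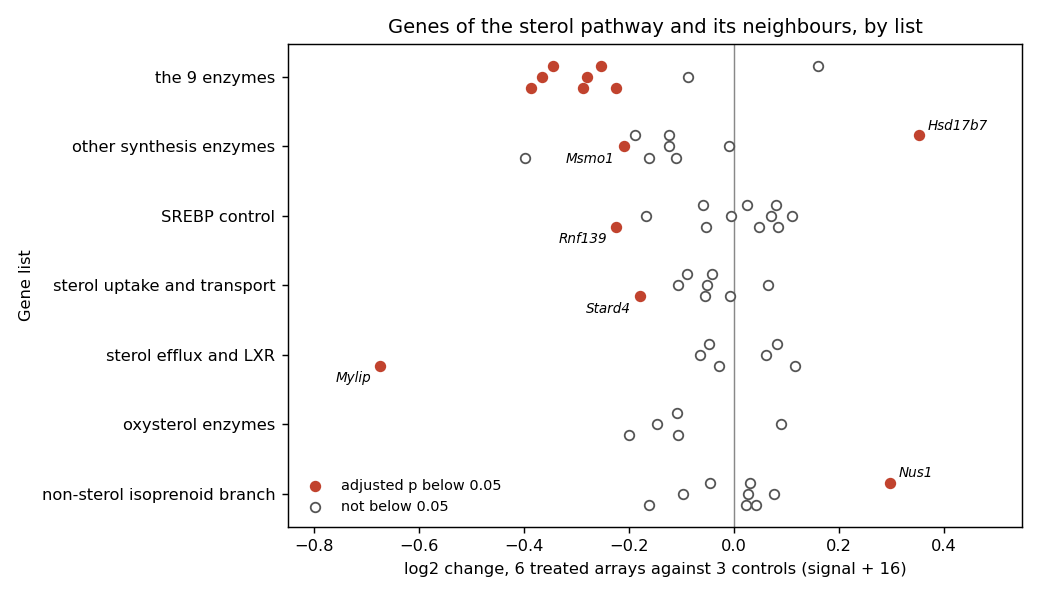
Log2 change (signal + 16) of 6 treated arrays against 3 controls for each measured gene of the sterol lists; filled points have an adjusted p below 0.05 over all genes, and those outside the 9 enzymes are named. The filled points of the 9 enzymes lie between -0.39 and -0.23, and in the other lists 0 to 2 genes a list are filled.

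Of 12 genes that control SREBP processing and sterol-regulated degradation, 11 were measured and 1, Rnf139, fell with each peptide, with a list median of 0.03 with both peptides. Rnf139 encodes TRC8, a ubiquitin ligase of the endoplasmic reticulum, and its signal was 1616 ± 31.6 (SD, n = 3) in control cells, 1405 ± 19.1 with PTH and 1358 ± 13.1 with PTHrP. It changed by -0.20 with PTH (adjusted p = 0.0269) and -0.25 with PTHrP (adjusted p = 0.0116) on the log2 scale. The PTH call was lost without any 1 control or PTH array (adjusted p 0.0576 to 0.0951) and the PTHrP call without PTHrP replicate 1 (0.052); the mean of its probe sets gave -0.05 with both peptides (0.704). The transcripts of the regulators themselves did not pass: the log2 change with both peptides was -0.17 for Srebf2 (adjusted p = 0.312), -0.06 for Srebf1 (adjusted p = 0.462) and 0.05 for Insig1 (adjusted p = 0.576). Srebf2 was 496 ± 64.5 in controls, 445 ± 30.1 with PTH and 432 ± 25.6 with PTHrP. Insig1, itself a target of SREBP, was 6452 ± 54.7, 6713 ± 209 and 6628 ± 186 in the same order.

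Among 10 genes of sterol efflux and the liver X receptor (LXR), 7 were measured and 1, Mylip, fell with each peptide. Mylip encodes IDOL, an LXR-induced ubiquitin ligase that limits the uptake of lipoprotein cholesterol. Its signal was 1351 ± 58.3 (SD, n = 3) in control cells, 852 ± 26.7 with PTH and 829 ± 29.4 with PTHrP, with treated arrays of 795 to 874 and controls of 1283 to 1385. The log2 change was -0.65 with PTH (SE 0.05, adjusted p = 0.000418) and -0.69 with PTHrP (SE 0.05, adjusted p = 0.000302). Abca1, the LXR-induced cholesterol exporter, was 4248 ± 210 in controls, 4375 ± 202 with PTH and 4488 ± 127 with PTHrP and did not pass (0.06 with both, adjusted p = 0.564).

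Of 10 sterol uptake and transport genes, 8 were measured, 7 of them with a negative change with both peptides, and 0 passed with PTH or PTHrP alone; limma called 1 lower with both together, Stard4, a cytosolic sterol carrier (851 ± 43.0 in controls, 759 ± 18.9 with PTH, 740 ± 18.1 with PTHrP, adjusted p = 0.0464), a call lost in 14 of 19 alternatives. The brightest of this list, Npc2, Lrp1 and Scarb1, changed by -0.06, 0.07 and -0.04 on the log2 scale with both peptides (adjusted p 0.454 to 0.763). All 5 oxysterol enzymes were measured and 0 passed; the brightest, Hsd3b7, Cyp7b1 and Ch25h, had log2 changes of 0.09, -0.15 and -0.20 with both peptides (adjusted p 0.107 to 0.260). Of 10 genes of the non-sterol isoprenoid branch, 9 were measured and 1, Nus1, rose with each peptide. Nus1 encodes a subunit of the cis-prenyltransferase that makes dolichol from farnesyl pyrophosphate. Its signal was 1395 ± 110 (SD, n = 3) in control cells, 1691 ± 45.9 with PTH and 1738 ± 6.10 with PTHrP (log2 change 0.28, adjusted p = 0.0373, and 0.32, adjusted p = 0.0241). The PTH call was lost without any array except control replicate 1 (adjusted p 0.057 to 0.129), and the PTHrP call without control replicate 2, PTH replicate 3 or any PTHrP array (0.0511 to 0.082). With both peptides combined the change was 0.30 (adjusted p = 0.0123), a call kept in all 19 alternatives. Among all probe sets, 1434304_s_at and 1460563_at were called higher with each peptide (adjusted p 0.0303 to 0.0421). The brightest, 1419914_s_at, and the dimmer 1420646_at, 1419915_at and 1440478_at were not.

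Outside these lists, the 5 genes whose log2 values followed the mean of the 9 enzymes most closely over the 9 arrays were Klhl5, Cav2, Lima1, Ddit4l and Lrrc17, with Pearson correlations of 0.982 to 0.984 among 12806 genes ranked. The largest of their changes with both peptides was that of Ddit4l, from 300 in controls to 183 with PTH and 195 with PTHrP, a log2 change of -0.62. Cav2, a caveolin of the cholesterol-rich membrane pits that are abundant in adipocytes, was 6091 in controls, 5148 with PTH and 5235 with PTHrP, a log2 change of -0.23. The likeness was chosen over these same arrays and is a description.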

How the data were processed

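Probe set intensities of 9 Affymetrix arrays were used as deposited by the authors. The labels do not state how probes were summarised or scaled. The values were treated as linear because of their range (highest value per array 17113 to 18614). After 64 array controls were left out, 34945 probe sets had 1 symbol, 932 several and 9160 none. Each gene was its brightest probe set (9010 genes had more than 1).

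Log2(intensity + 16) was fitted with limma 3.58.1 in R 4.3.3, over all 9 arrays with a mean per group and two-sided tests, and Benjamini-Hochberg adjustment over all genes or, separately, over all probe sets. Percentages of control are of mean intensities. Changes are on the log2(intensity + 16) scale, with 3 arrays per group. Figures used matplotlib 3.10.9 and the steps were tested on simulated data. The members and lists were chosen with earlier results of these data known. The rule for named genes took the 9 enzymes, Srebf1, Srebf2, Insig1, each list gene that passed with either peptide, otherwise up to 3 of a list's brightest, and the 5 most alike; listed genes without a probe set of their own symbol were not analysed here. Alternatives were other scalings, filters, probe set rules, pseudocounts of 1 and 64, a trended and robust variance, a replicate block, fitting only the groups compared, and leaving out each array. Promoter windows are from RefSeq (GRCm38.p6).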

Additional observations from a re-analysis of the deposited data

How the results depend on the processing

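Of 531 changes of single enzymes against control under alternatives, 420 kept direction and side of the threshold, 98 lost a call, 13 gained one and 0 reversed; each scaling left the median change of all genes between -0.00598 and 0.0142. Members called lower with PTH (6) numbered 2 with averaged probe sets and 1 to 6 when each array was left out. With PTHrP (6) they numbered 3 with median or 75th percentile centring, with the mean of probe sets or with all probe sets tested, 2 with only the groups compared, and 3 to 4 leaving out arrays. With both peptides (7) they numbered 3 with the mean of probe sets and 5 to 7 leaving out arrays. Members called higher (0) became 1, Hmgcs1, with a trended and robust variance for PTHrP and for both peptides, and for both peptides also with the dimmest 40% left out or the mean of probe sets. Genes called in all (PTH 1103, PTHrP 1011, both 1527) became 1758 and 1670 without the dimmest 40%, 1741 and 1647 with a trended and robust variance, and 454 for PTHrP with only the groups compared; leaving out arrays gave 468 to 1047, 512 to 769 and 860 to 1421. PTH against PTHrP (0) gave 2 with a pseudocount of 1 and 0 to 1 leaving out arrays. The cause of these shifts was not tested. The number of arrays limits what can be detected.

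Arrays with the same replicate number did not deviate together (correlations -0.170 to 0.122 over 9 pairs, against -0.174 to 0.207 over 18 pairs of different numbers), so the numbers were not used for pairing. With a replicate block, members called lower were 3 with PTH, 2 with PTHrP and 5 with both peptides, and all genes called were 671 with PTH and 572 with PTHrP. The Fdps call with PTHrP was lost under the block (adjusted p = 0.0502).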
